A study of Homo sapiens with 4 samples.

Results

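The genes examined here encode the nuclear subunits of oxidative phosphorylation, and they were compared between ESS2-knockdown and control prostate cancer cells. Members were every protein-coding gene whose symbol starts with NDUFA, NDUFB, NDUFC, NDUFS or NDUFV (complex I), with SDHA to SDHD (complex II), with UQCR or CYC1 (complex III), with COX4I, COX5, COX6, COX7 or COX8 (complex IV), or with ATP5 (complex V), with NDUFAF assembly factors, pseudogenes and non-coding RNAs left out. The rule found 87 symbols, of which 86 had a probe on the array, out of 25121 genes with a matched symbol, and UQCRHL was the one without. They fell into 37 genes of complex I, 4 of complex II, 9 of complex III, 17 of complex IV and 19 of complex V. NDUFA4 and NDUFA4L2 were not members because the gene table now lists them as COXFA4 and COXFA4L2.

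RNA of 2 human prostate cancer cell lines was hybridised to 4 one-colour Agilent arrays, 1 array per condition. PC3 came from a bone metastasis and DU145 from a brain metastasis, and both grow without androgen. The control cells, PC3-shC and DU145-shC, carried a luciferase shRNA, and the knockdown cells, PC3-shESS2 and DU145-shESS2, carried an shRNA against ESS2, a spliceosome-associated transcriptional coregulator. The labels give lentiviral transduction for both lines, whereas the methods of the study describe plasmid transfection and puromycin selection for PC3. Neither says whether the selected cells were a pool or 1 clone. With 1 array per condition, a difference within a line had no replicate check and no p-value was computed for it.

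Complex I takes electrons from NADH and complex II from succinate. Complex III passes them to cytochrome c, complex IV passes them on to oxygen, and complex V, the ATP synthase, uses the proton gradient built by complexes I, III and IV to make ATP. Each of these complexes except complex II also holds subunits encoded by mitochondrial DNA, which were not analysed here. The nuclear subunits are abundant housekeeping transcripts in most tissues, and cancer cell lines differ in how far they rely on them.

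Levels are given as log2 of the array's processed signal minus the 75th percentile of that array, so that 0 is a gene brighter than 3 in 4 spots, and a ratio is the log2 level in shESS2 cells minus that in shC cells. Levels of different genes come from different probes and cannot be set against each other. A gene entered the comparison of a line when 1 or both of its arrays there had a spot flagged as well above background. The 75th percentile signal lay between 212 and 290 on the 4 arrays, 50.8 to 52.6% of spots were well above background and no spot was saturated. Probes spotted 10 times gave a median SD of the single-spot ratio of 0.084 in PC3 and 0.082 in DU145, which covers the array surface but not the cells. ESS2 stood at -0.98 in PC3-shC and -2.44 in PC3-shESS2, a ratio of -1.45, and at -1.31 in DU145-shC and -3.66 in DU145-shESS2, a ratio of -2.35, and normexp background correction gave ratios of -0.90 and -1.13. GAPDH had ratios of 0.18 in PC3 and 0.04 in DU145, and ACTB had ratios of 0.15 and -0.04, the latter 0.11 with quantile normalization. CTNNA1, which PC3 is known to lack, did not exceed background on the PC3 arrays by the scanner's flag and did on both DU145 arrays. Of the 5 epithelial markers all were measured in both lines, and EPCAM had a ratio of -2.61 in DU145, where those of KRT8, KRT19, CDH1 and KRT18 ran from -0.033 to 0.28. In PC3 the 5 ran from -0.38 for EPCAM to 0.56 for KRT8. The luminal prostate marker KLK3 was not well above background on any array, and neither were 3 of the 5 fibroblast markers (COL1A2, COL3A1 and DCN). Of the other fibroblast markers, LUM had dim signals of 9.9 and 48.8 in PC3, a ratio of 2.16, and was not well above background in DU145, and COL1A1 had ratios of -0.57 and -0.21. CD14, a monocyte marker, had ratios of -2.16 in PC3 and 0.63 in DU145. Any part of these markers in the results below was not tested.

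The subunit genes were lower in PC3-shESS2 than in PC3-shC across nearly the whole set, by small amounts. Of the 84 members compared in PC3, 75 had a ratio below 0, beside 55.7% of all 16764 genes compared, and 71 lay below the median of all genes. Their median ratio was -0.25, beside -0.055 for all genes, which left -0.19 between the medians. Over the other scalings tried, from 66 members (quantile normalization) to 79 (arrays scaled to their medians) had a ratio below 0 in PC3. The all-gene median ran from -0.16 to 0.035 over these scalings, and the distance between the medians from -0.19 to -0.11. In DU145, 64 of 84 members had a ratio below 0, beside 52.8% of all 16842 genes, and 61 lay below the all-gene median. The members' median there was -0.11, beside -0.022 for all genes, which left -0.088, with 56 to 60 members below 0 and a distance of -0.088 to -0.045 over the same scalings. With no filter on dim genes the DU145 distance turned to 0.014, and 35 of 86 members lay below the all-gene median, among them 10 of 37 of complex I. The all-gene median was then -0.126, the offset between the lowest values to which dim genes were raised on the 2 DU145 arrays. These counts thus set the members beside that offset and not beside measured genes. The shifts of both lines were small next to a 2-fold change, which is 1 on this scale.

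Large differences were few. In PC3, 6 members were lower by over 0.5, beside 13.1% of all genes, and 0 were higher by over 0.5, beside 12.5%. In DU145, 2 members were lower by over 0.5, beside 11.3% of all genes, and 3 were higher, beside 9.3%. Past 2-fold in either direction there were 0 members in PC3, beside 7.75% of all genes, and 2 in DU145 (COX7C and COX7A1), beside 4.83%. Most members thus had small ratios.

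**Figure D1:**
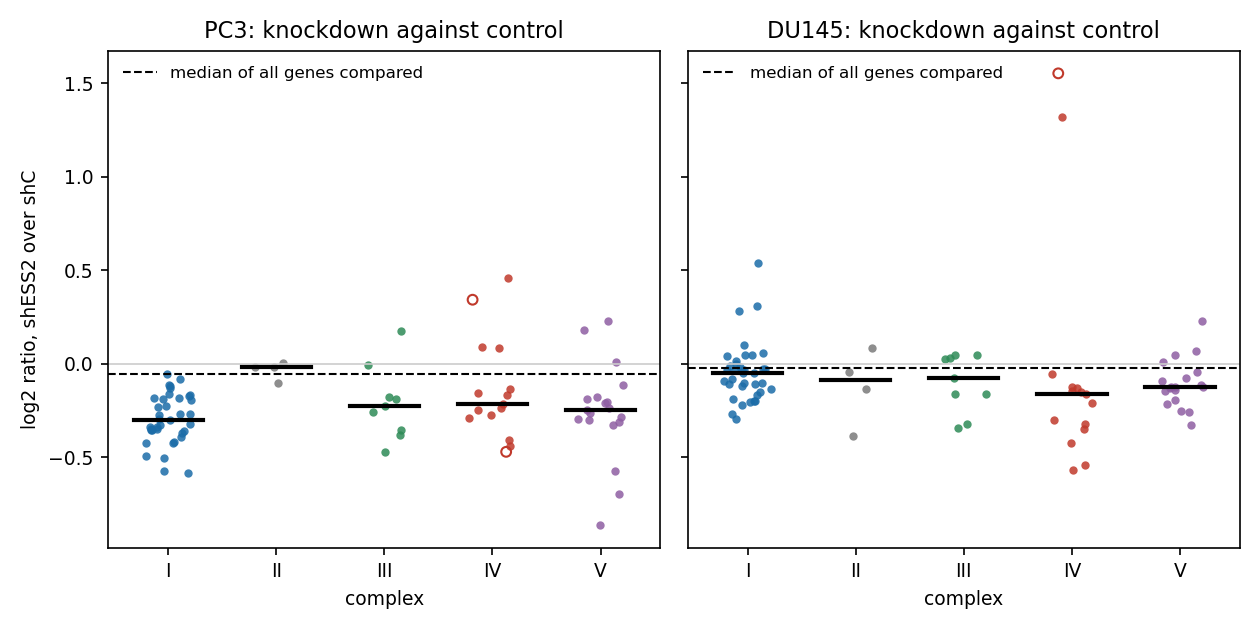
Log2 ratio of shESS2 over shC for each subunit gene, by complex, in PC3 (left) and DU145 (right); each point is 1 gene, filled where both arrays of the line were well above background and open where only 1 was, the thick bars are medians and the dashed line is the median of all genes compared. All 37 complex I genes lie below 0 in PC3 (34 with quantile normalization), complex II lies near the all-gene median, and in DU145 COX7C and the bound for COX7A1 stand above the rest.

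Bright genes as a whole also had a median ratio below that of all genes, except in PC3 with quantile normalization (-0.0017 against -0.016), so the members were set beside them. The 1245 genes at or above a mean level of 4.77, the members' lower quartile, had a median ratio of -0.13 in PC3 and -0.070 in DU145. Against these, the members' medians were lower by 0.12 in PC3 and 0.039 in DU145. Among the bright genes 70.2% had a ratio below 0 in PC3 and 62.6% in DU145. Large differences were few among them as well. In PC3 90 of them (7.23%) were lower by over 0.5, near the share of the members (7.14%), and 48 (3.86%) were higher. In DU145 66 (5.30%) were lower and 48 (3.86%) higher. Past 2-fold in either direction there were 30 bright genes in PC3 (2.41%) and 19 in DU145 (1.53%), beside 2.38% of the members in DU145. The 83 cytoplasmic ribosomal protein genes compared in PC3, another abundant housekeeping family, had a median of -0.17 with 77 below 0. In DU145 85 of these genes were compared, with a median of -0.19 and 80 below 0. Quantile normalization took these medians to -0.063 in PC3 (62 below 0) and -0.055 in DU145 (67 below 0). In DU145 the ribosomal genes lay lower than the subunit genes, by both of these settings.

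Complex I had the lowest median in PC3, at -0.30, and all 37 of its genes were below 0, from -0.58 for NDUFV2 to -0.054 for NDUFB8, a count that was 34 with quantile normalization, 36 with normexp and 35 with the authors' scaled values. In DU145 its median was -0.050, with 28 of 37 below 0. With quantile normalization the medians were -0.19 in PC3 and -0.022 in DU145. The 7 nuclear core subunits, which carry the flavin, the iron-sulfur clusters and part of the quinone site, had a median of -0.39 in PC3 and -0.032 in DU145, where normexp turned it to 0.020. NDUFV2, which holds an iron-sulfur cluster beside the flavin, stood at 7.04 in PC3-shC and 6.45 in PC3-shESS2, and at 5.95 in DU145-shC and 5.99 in DU145-shESS2. It was thus lower only on the PC3 knockdown array, and its dimmer probe gave the same sign in PC3, at -0.71. NDUFV1, the flavin and NADH-binding subunit, stood at 6.55 and 6.13 in PC3 and at 5.89 and 5.70 in DU145, lower with the knockdown in both lines by 0.42 and 0.20. NDUFS7, an iron-sulfur subunit next to the quinone site, had ratios of -0.42 in PC3 and -0.22 in DU145. NDUFS8, its neighbour with a pair of iron-sulfur clusters, had ratios of -0.39 and 0.099. NDUFS3, of the quinone-binding module, had ratios of -0.36 in PC3 and 0.017 in DU145. NDUFS1, the largest iron-sulfur subunit, had the larger ratio in DU145, with -0.13 in PC3 and -0.30 in DU145, the lowest of the complex in that line. Quantile normalization turned its PC3 ratio to 0.011.

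The 30 accessory subunits of complex I had a median of -0.27 in PC3, with all 30 below 0, and of -0.051 in DU145, with 24 below 0. Over the scalings, 28 to 30 were below 0 in PC3 and 19 to 24 in DU145. Quantile normalization took the medians to -0.15 and -0.025. NDUFA5 stood at 4.001 and 3.50 in PC3-shC and PC3-shESS2 and at 3.86 and 3.59 in DU145-shC and DU145-shESS2. It was lower in the knockdown cells of both lines, with ratios of -0.50 and -0.27. NDUFA2 stood at 6.11 and 5.54 in PC3 but at 4.75 and 5.04 in DU145. NDUFA3 stood at 6.45 and 6.09 in PC3 and at 4.62 and 4.94 in DU145. Both of these accessory subunits were lower in the knockdown cells of PC3 and higher in those of DU145. NDUFB11, an accessory subunit of the membrane arm encoded on the X chromosome, stood at 5.52 and 5.30 in PC3 and at 4.81 and 5.35 in DU145, where its ratio of 0.54 was the highest of the complex.

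**Figure D2:**
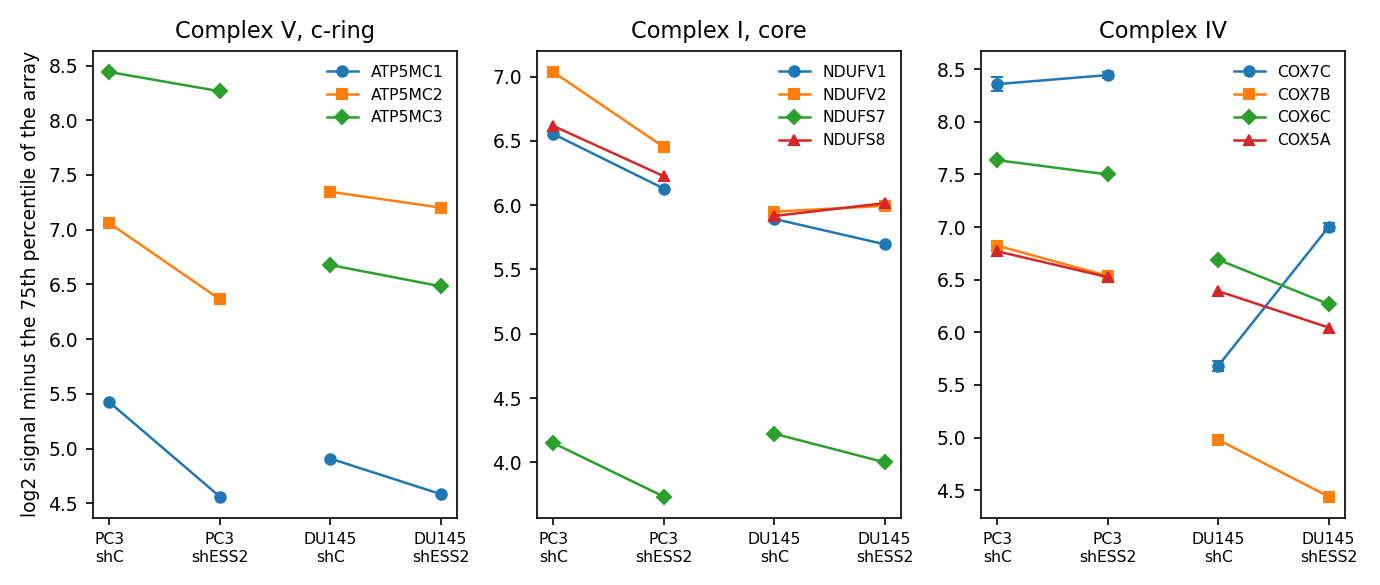
Level on each of the 4 arrays (log2 signal minus the array's 75th percentile) of the 3 c-ring genes of complex V, 4 core genes of complex I and 4 genes of complex IV; lines join control and knockdown within a line, and the error bars on COX7C are the SD over 10 spots of its probe, which was the only one of these spotted more than once. ATP5MC1, ATP5MC2 and the 4 core complex I genes are further below their control in PC3 than in DU145, and COX7C is the one that is far higher in DU145-shESS2 than in DU145-shC. Heights of different genes are not comparable.

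Complex II, the succinate dehydrogenase that also works in the tricarboxylic acid cycle, stayed near the all-gene median in PC3. Its 4 genes had PC3 ratios of -0.10 for the flavoprotein SDHA, -0.015 for the iron-sulfur subunit SDHB, -0.016 for the membrane anchor SDHC and 0.0042 for the anchor SDHD, with a median of -0.016 that quantile normalization, normexp and the authors' scaled values turned to 0.099, 0.022 and 0.076. Only SDHA was below the median of all genes. In DU145 the median was -0.087, and SDHD had the lowest ratio, standing at 3.70 in DU145-shC and 3.32 in DU145-shESS2. All 3 probes of SDHD were lower in DU145-shESS2, by 0.34 to 0.39. The 4 probes of SDHA had ratios of -0.013 to -0.10 in PC3 and of 0.086 to 0.22 in DU145. With 4 genes, the distance of complex II from the others was not tested.

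Complex III had a median of -0.23 in PC3, with 8 of 9 below 0, and of -0.077 in DU145, with 5 of 9 below 0. Quantile normalization brought these medians to -0.078 and -0.0081. CYC1, the cytochrome c1 subunit, stood at 6.23 and 5.88 in PC3 and at 4.44 and 4.10 in DU145, with ratios of -0.35 and -0.34. UQCRC2, a core subunit, had the lowest PC3 ratio, at -0.47. Its probe was spotted 10 times, with means of 4.22 ± 0.05 in PC3-shC and 3.74 ± 0.06 in PC3-shESS2 (SD over spots of 1 array). UQCRFS1, the Rieske iron-sulfur protein, had ratios of -0.19 and -0.32. UQCRQ had ratios of -0.38 in PC3 and 0.047 in DU145. UQCRB was the exception in PC3, at 0.18, but its other, dimmer probe gave -0.35 and the mean of both -0.085, so the direction of this gene depended on the probe. UQCRH had ratios of -0.0072 and -0.16, and its signal may include transcripts of its near copy UQCRHL.

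Complex IV, cytochrome c oxidase, held both members past 2-fold in DU145. Its median was -0.21 in PC3, with 11 of 15 below 0, and -0.16 in DU145, with 13 of 15 below 0, which quantile normalization took to -0.095 and -0.12. It was the complex with the lowest median in DU145. COX7C, a small membrane subunit, stood at 8.36 ± 0.07 in PC3-shC and 8.44 ± 0.03 in PC3-shESS2, and at 5.68 ± 0.05 in DU145-shC and 7.0004 ± 0.04 in DU145-shESS2 (SD over 10 spots of 1 array). The gene was thus low on the DU145 control array and 2.50-fold higher on the DU145 knockdown array, a ratio of 1.32, with no overlap of the spots (5.59 to 5.74 against 6.94 to 7.08). COX7B had the opposite direction in DU145, standing at 4.98 and 4.44, a ratio of -0.54, and at 6.82 and 6.54 in PC3, a ratio of -0.29. COX6C was lower in both lines as well, with ratios of -0.14 and -0.42. COX5A, which lies on the matrix side, had ratios of -0.25 and -0.35, and COX7A2 had ratios of -0.27 and -0.30. COX7A2L, a homologue that takes part in supercomplexes, had ratios of 0.092 in PC3 (-0.011 with arrays scaled to their medians) and -0.15 in DU145.

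Several complex IV subunits have a widely expressed form and a form restricted to other tissues or conditions. Of the widely expressed forms, COX4I1 had ratios of -0.23 and -0.16, COX6A1 of -0.15 and -0.21, COX6B1 of -0.41 and -0.12, and COX8A of -0.21 and -0.32. These were below 0 in both lines, except that quantile normalization put COX6A1 at 0.00947 in PC3. Of the restricted forms, the muscle forms COX6A2 and COX7A1 and the lung form COX4I2 were near background, and COX7B2 was not well above background on any array. COX4I2 was well above background only on PC3-shC. COX7A1 was well above background only on DU145-shESS2, with signals of 2.21 and 26.1 on the 2 DU145 arrays, and was at least 2.93-fold higher there, a bound of 1.55 on the log2 scale. COX6A2 was well above background on both DU145 arrays, with a ratio of -0.15, and in PC3 exceeded it on the knockdown array alone. COX6B2, the testis form, had ratios of -0.44 and -0.056 by its brighter probe, at levels of 4.10 to 5.07, and of -0.51 and -0.016 by its other probe, which read only -3.22 to -2.71 on the same arrays. COX8C, also a testis form, had signals of 19.3 in PC3-shC and 29.2 in PC3-shESS2 and of 84.6 in DU145-shC and 58.7 in DU145-shESS2, so its ratios were 0.46 and -0.57, which normexp changed to 0.042 and -0.31. The renamed COXFA4 stayed at 7.69 and 7.71 in PC3 and at 7.15 and 7.09 in DU145, and its homologue COXFA4L2 was well above background only in DU145-shC.

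Complex V, the ATP synthase, had a median of -0.25 in PC3, with 16 of 19 below 0, and of -0.12 in DU145, with 15 of 19 below 0. With quantile normalization they were -0.13 and -0.050. The 3 genes of the c-ring, the rotor through which protons pass, encode the same mature protein from different transcripts. ATP5MC1 stood at 5.43 in PC3-shC and 4.56 in PC3-shESS2, and at 4.91 in DU145-shC and 4.58 in DU145-shESS2. It was lower in the knockdown cells of both lines, by 1.82-fold in PC3 and 1.25-fold in DU145, and it had the lowest ratio of all members in PC3, at -0.86. ATP5MC2 stood at 7.06 and 6.36 in PC3 and at 7.35 and 7.20 in DU145, with ratios of -0.70 and -0.14. ATP5MC3 had ratios of -0.18 in PC3, which was -0.026 with quantile normalization, and of -0.19 in DU145, which was -0.096. All 3 c-ring genes were thus below the all-gene median in both lines.

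The 5 genes of the catalytic F1 head had a median of -0.25 in PC3, with all 5 below 0, and of -0.043 in DU145, with 3 below 0, which quantile normalization and normexp turned to 0.044 and 0.0037. ATP5F1D, the delta subunit of the central stalk, had the lowest of these in PC3, at -0.57, and -0.13 in DU145. ATP5F1B, the catalytic beta subunit, had -0.25 in PC3 and 0.23 in DU145, the highest ratio of the complex in that line. The 4 genes of the peripheral stalk, which holds the head still, had medians of -0.24 and -0.12, or -0.097 and -0.021 with quantile normalization. Within it ATP5PB stood apart in PC3, with levels of 6.27 and 6.50 and a ratio of 0.23, while in DU145 its levels were 4.54 and 4.29 and its ratio -0.25. The 5 genes counted as membrane accessory subunits had medians of -0.24 and -0.12, or -0.11 and -0.058 with quantile normalization. ATP5MK among them had ratios of -0.31 and -0.26. ATP5IF1, the inhibitor protein that blocks ATP hydrolysis by the enzyme, had ratios of 0.18 in PC3 and -0.093 in DU145, and both of its probes were higher in PC3-shESS2 (0.18 and 0.25).

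Where a member had several probes, they mostly had 1 direction. Of 19 such genes, all probes well above background were lower in 13 and higher in 2 in PC3, and were split in SDHC, SDHD, UQCR10 and UQCRB. In DU145 they were lower in 12, higher in 3 and split in NDUFA10, NDUFC2, SDHC and UQCR10. The median span between probes of a gene was 0.093 in PC3 and 0.061 in DU145, and the widest was 0.52, for UQCRB in PC3.

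The lines were then set side by side, gene by gene, with no shared array between them. Of the 83 members compared in both lines, 56 were below 0 in both, 1 was above 0 in both (COX7C, which scaling to medians put at -0.017 in PC3), 18 were below 0 in PC3 and above in DU145, and 8 were the reverse. In 60 of the 83 the ratio was lower in PC3 than in DU145, beside 52.3% of all genes, and the median difference of the ratios was -0.15. This held for 34 of 37 complex I genes but for only 5 of 14 complex IV genes. Across genes the ratios of the lines were weakly related at most. Over the 82 members well above background on all 4 arrays Pearson's r was -0.029 and Spearman's rho was -0.15, and without COX7C r was -0.21 over 81 genes. Over 14686 genes chosen alike r was 0.15. These are descriptions across genes, which share 4 arrays and are not independent.

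**Figure D3:**
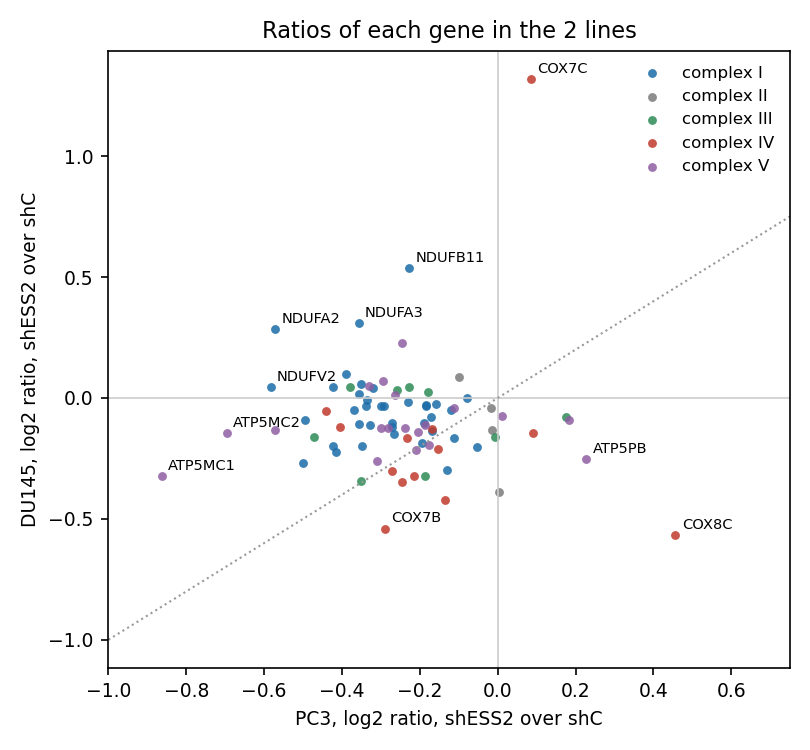
Log2 ratio of shESS2 over shC in PC3 (horizontal) against that in DU145 (vertical) for the 82 subunit genes well above background on all 4 arrays, coloured by complex; the dotted line marks equal ratios. Most points lie at negative ratios in both lines and above the dotted line, with COX7C, COX8C and NDUFB11 apart from the rest.

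The knockdown was also fitted over both lines with limma, with cell line as a block, over the 17126 genes that exceeded background on 2 or more of the 4 arrays. This fit had 1 residual degree of freedom. Of the 83 members in it, 0 passed a Benjamini-Hochberg adjusted p of 0.05 in limma, beside 0% of all genes called, and 0 members and 1047 of all genes had an unadjusted p under 0.05. In limma 78 of the 83 had a fitted difference below 0, beside 56.2% of all genes, with a median of -0.17, beside -0.043 over all genes, and a median SE of 0.19. Quantile normalization left 65 below 0, beside 52.5% of all genes, with a median of -0.074, and the authors' scaled values left 69, beside 48.1%. ATP5MC1 had the smallest p, with a difference of -0.59 ± 0.22 (SE), a 95% interval from -1.23 to 0.039 and a limma adjusted p of 0.75. The median half-width of the members' 95% intervals was 0.52.

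Genes that build or feed the chain were counted in the same way. The 53 assembly factors of the 5 complexes had a median of -0.24 in PC3, with 48 of 53 below 0, and of -0.13 in DU145, with 41 of 52 below 0. The PC3 median was -0.14 with the authors' scaled values, and the DU145 median -0.083 with normexp. For complex I, 15 of 16 assembly factors were below 0 in PC3 and 9 of 16 in DU145, the same order as for the subunits. For complex III, 9 of 9 were below 0 in PC3, with a median of -0.29, and 7 of 9 in DU145, with a median of -0.23. For complex IV, 19 of 21 and 19 of 20 were below 0, with medians of -0.26 and -0.11. The 4 complex II assembly factors had medians of -0.077 and -0.071 and the 3 of complex V -0.16 and -0.35. None of these genes had a ratio past 2-fold in either line, although that of COX18 in PC3, -0.91, is a bound because its knockdown array was not well above background. The 17 genes of the tricarboxylic acid cycle had medians of -0.14 and -0.048, with 14 and 9 below 0, and the 13 electron carriers and transporters had medians of -0.12 and -0.10, with 10 and 7 below 0. Quantile normalization took the PC3 medians of these lists to -0.023 and -0.0086, and the authors' scaled values took them to -0.054 and -0.033. Their DU145 medians were both nearer to 0 with quantile normalization (-0.019 and -0.024) and with normexp (-0.019 and -0.030). The 77 mitochondrial ribosomal protein genes had medians of -0.13 in both lines, with 63 and 58 below 0, and the PC3 median was -0.058 with quantile normalization and -0.040 with the authors' scaled values. The PC3 median of the complex II assembly factors turned to a value above 0 with quantile normalization and with the authors' scaled values, and those of the other lists stayed below 0 under the 4 other scalings.

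Regulators of mitochondrial biogenesis were lower in both lines, with 15 of 17 below 0 in each and medians of -0.28 in PC3 and -0.26 in DU145. PPARGC1B, a coactivator of respiratory genes, stood at 0.26 and -0.76 in PC3 and at -0.30 and -0.89 in DU145, with ratios of -1.02 and -0.58. PPARGC1B was the 1 regulator past 2-fold, in PC3, by a margin smaller than the move of the all-gene median there between scalings. That median was -0.055 here and 0.035 with the authors' scaled values. The related coactivator PPARGC1A was dim, at ratios of 0.0012 and -0.11. TFAM, which packages mitochondrial DNA and helps start its transcription, had ratios of -0.43 and -0.42. ESRRA, a nuclear receptor that binds with these coactivators, had ratios of -0.45 and -0.13. The transcription factor NRF1 had ratios of 0.31 and -0.47, and GABPA, the DNA-binding subunit of the ETS-family factor GABP, had ratios of -0.11 and -0.013. MYC had levels of 5.37 and 4.57 in PC3 and of 4.17 and 4.48 in DU145, with ratios of -0.80 and 0.31.

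**Figure D4:**
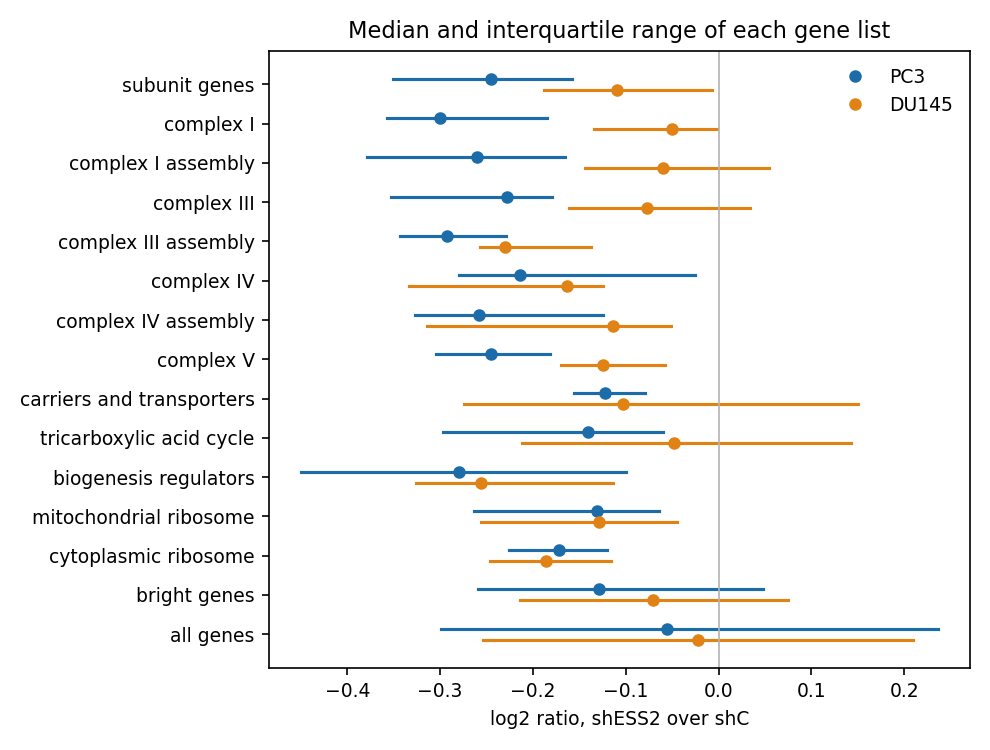
Median (point) and interquartile range (line) of the log2 ratio of shESS2 over shC in PC3 (blue) and DU145 (orange). Shown are the subunit genes, complexes I, III, IV and V, the assembly factors of complexes I, III and IV and related gene lists, above the bright genes and all genes compared. Complex II and the assembly factors of complexes II and V are not drawn. Complex I and its assembly factors lie lower in PC3 than in DU145, and the ribosomal and regulator lists lie at about the same place in both lines.

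Promoters of respiratory genes are known to hold sites for the factors NRF1, GABP and YY1, so the RefSeq promoters (GRCh38.p14, 250 bases before to 50 after the start site) were searched on both strands. Promoters were held for 70 of the 86 members. The letters GCGCANGCG, an NRF1 site, occurred in 23 of them (32.9%), beside 11.02% of 15843 protein-coding promoters. The letters CCGGAAG, an ETS site of the kind GABP binds, occurred in 20 (28.6%), beside 14.2%, and AAGATGGCG, a YY1 site, in 8 (11.4%), beside 2.74%. At least 1 of them was present in 41 members (58.6%), beside 24.7%. Among the 11387 promoters of genes compared on these arrays, the shares were higher than among all promoters, at 13.7% for the NRF1 letters, 17.9% for the ETS letters, 3.63% for the YY1 letters and 30.8% for any of them. The ETS and YY1 letters can share their bases AAG, and 1 run can match the same letters on both strands, so matches may overlap. The stretches below show such a match in genes described here, with the matched letters in capitals, each read in the direction of its gene.
ATP5MC2, NRF1 letters, chr12:53676105-53676134, minus strand: gcccgggtcaCGCATGCGCtgagccttcct
NDUFS7, NRF1 letters, chr19:1383823-1383852, plus strand: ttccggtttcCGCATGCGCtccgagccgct
NDUFA3, NRF1 letters, chr19:54102772-54102801, plus strand: gtgctccaggGCGCACGCGcagccctggga
UQCRQ, ETS letters, chr5:132866577-132866606, plus strand: aatggtatctcCCGGAAGttacctcacgac
NDUFB7, ETS letters, chr19:14572072-14572101, minus strand: gcctaaatgacCCGGAAGctgtgtctgact
The median ratio was -0.23 with any match and -0.27 without in PC3, and -0.11 with and -0.11 without in DU145. By motif, the PC3 medians with and without were -0.21 and -0.27 for the NRF1 letters, -0.23 and -0.27 for the ETS letters and -0.28 and -0.24 for the YY1 letters. In DU145 they were -0.074 and -0.12, -0.13 and -0.093, and -0.070 and -0.11, in the same order. None of these differences was tested. A match is a description of letters and shows no binding.

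The levels themselves differed between the lines more than between knockdown and control. In the same limma fit, 39 of the 83 members were higher in PC3 at an adjusted p of 0.05 in limma, beside 28.5% of all genes, and 2 were higher in DU145, beside 23.8%. Without regard to the threshold, 70 of 83 were higher in PC3, beside 53.9% of all genes. The members' median difference (PC3 minus DU145) was 0.72, beside 0.10 over all genes and 0.52 over the 1245 bright genes. Each line was on its own slide, with its own scan and probe annotation release, so line and slide cannot be told apart. Both line and knockdown are terms of the fit, so the spread behind its p-values is how unlike the knockdown ratios of the 2 lines are. No replicate array enters that spread. The members' median difference moved with the scaling of the arrays, to 1.11 with arrays scaled to their medians, 0.24 with quantile normalization (52 of 83 higher in PC3) and 0.31 by the table of the authors (56 of 83). The counts past the threshold moved as well, to 60 higher and 1 lower with medians to 21 higher and 8 lower with quantile normalization, and to 20 higher and 8 lower with the authors' scaled values.

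By complex, the median difference was 0.80 for complex I (34 of 37 higher in PC3), 0.42 for complex II (3 of 4), 0.50 for complex III (7 of 9), 0.74 for complex IV (12 of 14) and 0.25 for complex V (14 of 19). UQCRC1, a core subunit of complex III, had the largest difference, with levels of 6.17 and 5.94 on the PC3 arrays and of 3.72 and 3.76 on the DU145 arrays. The PC3 arrays were both above the DU145 arrays, by 2.31 ± 0.19 (SE; limma adjusted p 0.0041). NDUFB7, a membrane-arm subunit of complex I, had levels of 4.76 and 4.53 in PC3 and of 2.46 and 2.45 in DU145, a difference of 2.19 ± 0.19 (SE; limma adjusted p 0.0043). The others of the 10 with the largest size were COX7C (2.06), ATP5PB (1.97), COX7B (1.97), NDUFB4 (1.88), CYC1 (1.79), ATP5MC3 (1.77), NDUFS5 (1.65) and COX8C, which was higher in DU145 (-1.93, limma adjusted p 0.014). ATP5F1C, the gamma subunit of the ATP synthase rotor, was the other member higher in DU145, with levels of 2.38 and 2.18 in PC3 and of 3.32 and 3.18 in DU145 and a difference of -0.97 (limma adjusted p 0.018). COX7C had unlike knockdown ratios in the 2 lines, as given above, and its SE was 0.36.

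**Figure D5:**
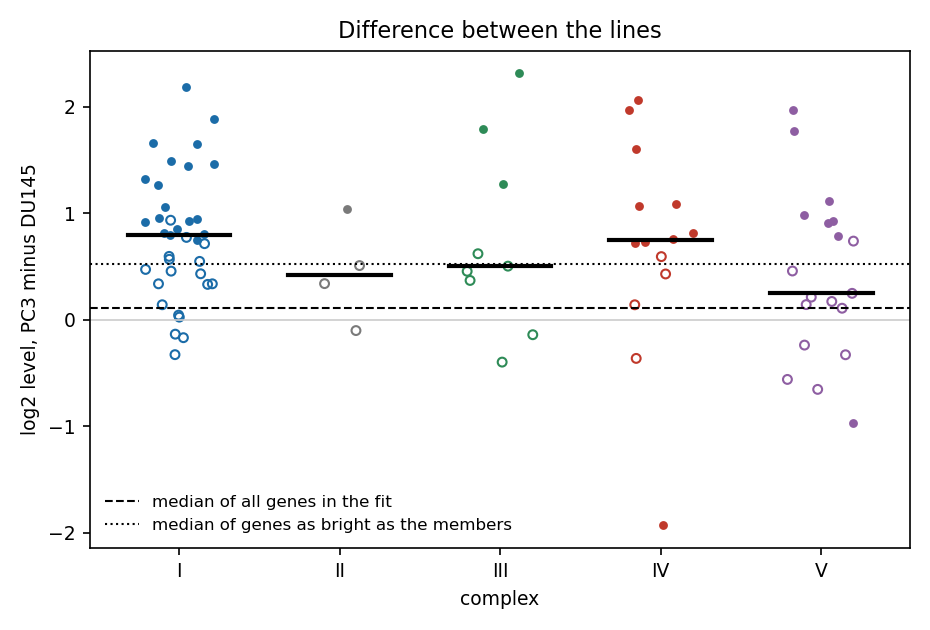
Fitted difference in level between the lines (log2, PC3 minus DU145) for the 83 subunit genes in the limma fit, by complex; filled points have an adjusted p under 0.05, thick bars are medians, the dashed line is the median of all genes and the dotted line that of genes as bright as the members. Most genes lie above 0, and the medians of complexes II, III and V lie below the dotted line.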

How the data were processed

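The authors deposited Agilent Feature Extraction output for 4 arrays (per the file headers version 12.1.0.3 for PC3 and 12.0.3.1 for DU145) with the processed signal as an intensity per spot, and a table of scaled intensity values that proved to be the processed signal times 1 constant per array. The methods name GeneSpring without settings. Here log2 of the deposited intensity minus the array's 75th percentile over 60901 non-control spots was used. Outlier spots were left out, spots of a probe were averaged, and the brightest probe stood for a gene. Dim values under the lowest value well above background on that array were raised to it, and a fold against a raised value is a bound. Dim values above that lowest value were kept. Probes were named through their accessions in the RefSeq gene table (GRCh38.p14), which matched 35080 of 58201 probes and gave 111 probes of members. Left out were 13 probes of assembly factors (counted separately), 9 of non-coding RNAs and 1 of a pseudogene.

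Differences past 0.5 and past 2-fold were counted with no test, as each condition had 1 array. limma 3.58.1 in R 4.3.3 (lmFit, eBayes) was fitted over the genes that exceeded background on 2 or more arrays (p-values adjusted after Benjamini-Hochberg over the whole table) and was tested on simulated data. Since nothing says that arrays of the lines are replicates of a culture, its p-values measure only the spread between these 4 arrays. With line and knockdown fitted, that spread is the difference between the knockdown ratios of the 2 lines, moderated over all genes. Alternatives were scaling to medians, quantile normalization, normexp (offset 50; on the median spot signal, the column at hand), other filters on dim genes, the mean of a gene's probes, outlier spots kept, the authors' scaled values, and other limma settings. Members named were those past 2-fold, the highest and lowest of each complex in each line, the 8 with the largest shared and the 8 with the largest unlike ratios, the 10 largest differences between lines, the isoform families and the core subunits of complex I; COX6C, UQCRFS1, UQCRH, SDHB, SDHC, ATP5F1D, ATP5F1C and the genes with split probes were added after their values were seen. Values of a few genes that these rules select are not reported here. The members and lists were chosen with earlier results of these data known.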

Additional observations from a re-analysis of the deposited data

Results flagged for a closer look

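COX8C, NDUFA2 and NDUFA3 were the 3 subunit genes with ratios of opposite sign in the 2 lines, each past 0.25 on the log2 scale, and well above background on all 4 arrays. COX8C was higher in PC3-shESS2 (0.46) and lower in DU145-shESS2 (-0.57), a difference between the lines of 1.02, at signals of 19.3 to 84.6, near the background, and with normexp its ratios were 0.042 and -0.31. NDUFA2 (-0.57 and 0.28) differed by -0.86 and NDUFA3 (-0.36 and 0.31) by -0.67. The other genes of opposite sign, NDUFB11 among them (-0.23 and 0.54), were under this size in at least 1 line. These differences between lines were not tested, since each rests on 1 array per condition.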

How the results depend on the processing

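The members' median ratio in PC3 stayed below 0 under each alternative run, at -0.35 with arrays scaled to their medians, -0.13 with quantile normalization and -0.16 with the authors' scaled values. Complex I genes below the all-gene median in PC3 numbered 32 to 36 of 37 over these settings. The 6 members lower by over 0.5 in PC3 became 14 with arrays scaled to their medians, 2 with the authors' scaled values (where 1 was higher) and 0 at 2-fold. In DU145 the 2 lower became 0 with normexp and 0 at 2-fold. The distance of the members from all genes in DU145 turned to 0.014 with no filter on dim genes, where genes held at the floor enter the all-gene median. That median, -0.126, was the ratio of a gene held at the floor on both arrays (-4.615 in DU145-shC and -4.741 in DU145-shESS2). The distance under this setting therefore does not compare the members with measured genes. The limma calls were 0 for the knockdown under each alternative, with 0 to 7 members at an unadjusted p under 0.05. Calls for the line, 41 in all, ran from 28 with the authors' scaled values to 61 with arrays scaled to their medians.
The limma fit for the knockdown paired control and knockdown within each line, and without the cell line term it also called 0 members. The labels carry no replicate numbers for another pairing. Leaving out an array left no residual degree of freedom, so it was not run. With 1 array per condition, culture, labelling and array cannot be told apart from the knockdown.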
